A study of Mus musculus with 9 samples.

Results

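Tight junctions and desmosomes hold epithelial sheets together, and this account covers the genes of both junctions in mouse embryonic stem cells after knockdown of Fam60a or Sin3a. Protein-coding genes were taken by symbol, namely every claudin (Cldn with a number), Tjp1, Tjp3, Ocln, Marveld2, Marveld3, F11r, Cgn, Epcam, Dsp, Jup, Pkp1 to Pkp4, Dsg2, Dsc2, Ppl, Evpl and Esrp1. These were 43 of the 37990 genes listed, and the 28 that held 60 or more reads over the 9 libraries are described. The limit on reads used totals and no difference between groups, yet the reads of 1 group can carry a gene past it. Cldn15 had 109 of its 165 reads after Fam60a knockdown, and Cldn5 had 76 of its 118 in the controls.

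The cells were E14 mouse embryonic stem cells, a pluripotent line kept here on gelatin in serum with LIF. Lentiviral pLKO.1 vectors delivered a short hairpin RNA against Fam60a, a hairpin against Sin3a, or a scrambled hairpin with no target, and all 3 groups went through the same transduction and puromycin selection. Each group had 3 libraries of total RNA, from 3 biological replicates per the labels, and the controls were the 3 libraries whose titles name neither target. Sin3a is the scaffold on which a histone deacetylase complex assembles, and Fam60a, whose current symbol is Sinhcaf, is one of its subunits. The knockdowns were of cell populations, so a change in the number of cells of a type and a change in RNA per cell cannot be told apart.

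In a tight junction, claudins form the strands that seal or selectively open the space between neighbouring cells. Ocln, the tricellulin gene Marveld2, Marveld3 and the junctional adhesion molecule F11r are other membrane proteins of the junction, and the zonula occludens scaffolds Tjp1 and Tjp3, with cingulin (Cgn), tie it to actin. In a desmosome, the cadherins Dsg2 and Dsc2 bind plakoglobin (Jup) and plakophilins, and desmoplakin (Dsp) links them to keratin filaments. Embryonic stem cells grow as compact colonies joined by E-cadherin and carry many of these epithelial genes.

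Libraries held 2607872 to 7674887 reads, with the lowest total in Sin3a knockdown replicate 3, so that 3 reads corresponded to 0.391 to 1.15 counts per 1000000 reads (CPM). Sinhcaf was at 13.5 ± 0.472 CPM in controls and 5.73 ± 0.753 CPM after Fam60a knockdown (SD, n = 3). Sin3a was at 287 ± 21.9 CPM in controls and 126 ± 13.4 CPM in its knockdown (SD, n = 3). After Fam60a knockdown Sin3a was at 217 ± 9.9 CPM (SD, n = 3), every library below every control. Its log2 fold change there was -0.40 (edgeR adjusted p = 0.0964, and 0.00466 without Sin3a knockdown replicate 3). Summed embryonic stem cell markers lay between 1593 and 2178 CPM in all libraries. Sin3a knockdown replicate 3 stood apart from the rest, and calls among the 28 genes and the lists that differ without it in the comparisons with control are given below.

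Of 23 claudins listed, 9 reached 60 reads, as did all 4 other membrane proteins, all 4 scaffolds, both desmosomal cadherins, 7 of 8 plaque genes, Epcam and the splicing regulator Esrp1. The 15 genes left out included 5 with 0 reads in every library, Cldn8, Cldn16, Cldn17, Cldn22 and Cldn24. Just below the limit lay Cldn2 with 55 reads, and just above it Marveld3 with 90. Cldn2 had 7, 13 and 22 reads in the controls, 2, 3 and 2 after Fam60a knockdown and 0, 4 and 2 after Sin3a knockdown. All 28 genes passed the filter on low counts.

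Per length, as CPM divided by the exon length in kilobases (RPKM), the highest control level of the 28 was that of Cldn4, at 49.7 ± 2.81 RPKM, a claudin of many tight epithelia. Further high levels were those of Epcam at 40.3 ± 3.05, Jup at 39.8 ± 1.61, Pkp4 at 37.3 ± 2.81, Tjp1 at 32.1 ± 0.499 and F11r at 29.3 ± 1.15 RPKM (SD, n = 3). Epcam and Jup differed by less than either SD, and Jup and Pkp4 by less than the SD of Pkp4, so their order is not resolved. The lowest level was that of Marveld3 at 0.715 ± 0.335 RPKM, with Cldn15 at 0.915 and Cldn19 at 1.06 RPKM just above it. Cldn6, a claudin of early embryonic epithelia, was at 19.3 ± 6.55 RPKM and Cldn7 at 4.36 ± 3.12 RPKM. In both genes control replicate 3 was the highest.

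**Figure D1:**
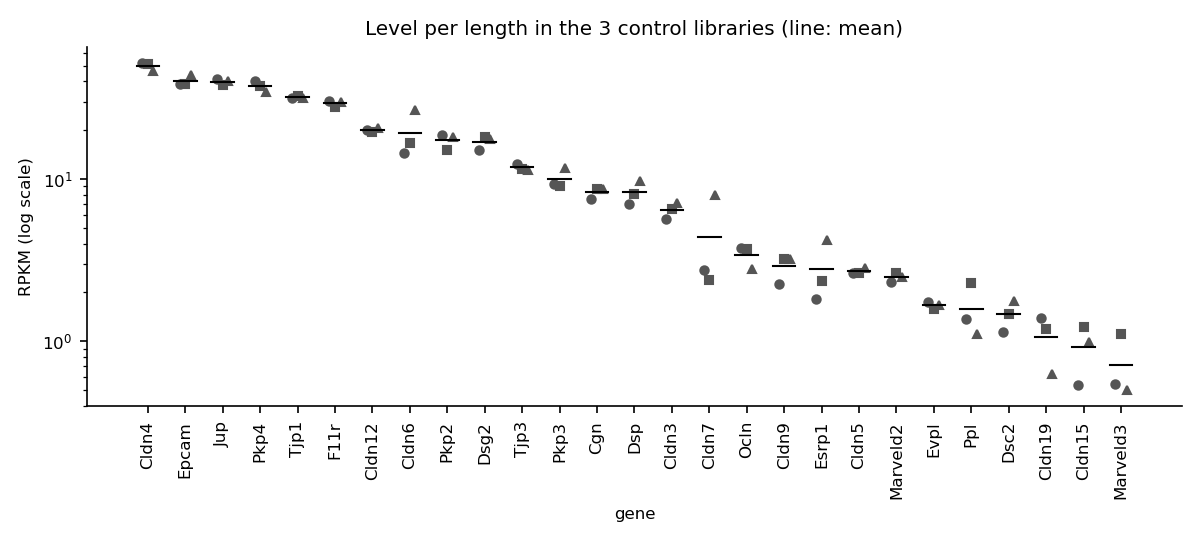
Control levels of 27 of the genes in RPKM on a log axis, each library as a point with the mean, ordered by level. Cldn4 is highest at 49.7 RPKM and Marveld3 lowest at 0.715 RPKM.

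Knockdown of Sin3a lowered 4 of the 28 genes, Tjp3, Cldn5, Cldn19 and Pkp2, and raised none (14.3% called, against 10.2% of all 14465 genes tested and 6.28% called lower). By role these were 2 of 9 claudins, 1 of 4 scaffolds, 0 of 4 other membrane proteins, 1 of 9 desmosome genes and neither Epcam nor Esrp1. The median log2 fold change of the 28 was 0.05, beside -0.01 over all genes. Knockdown of Fam60a gave 0 called genes among the 28 by edgeR, with 2.92% of all genes called. At an unadjusted p under 0.05, 8 of the 28 passed, against 15.7% of all genes. DESeq2 called 3 of the 28, Cldn5, Dsg2 and Pkp2, and 1181 of all genes, more than edgeR called.

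Tjp3 encodes ZO-3, a scaffold found in epithelial cells, and lies at chr10:81273207-81291581 on the minus strand of GRCm38 (ENSMUSG00000034917). It stood at 46.1, 43.1 and 42.5 CPM in the controls, 38.1, 39.1 and 30.0 CPM after Fam60a knockdown, and 6.71, 10.0 and 8.94 CPM after Sin3a knockdown. The Sin3a knockdown libraries were far below all 6 others, and the Fam60a knockdown libraries lay just below the controls. After Sin3a knockdown Tjp3 fell to 19.5% of control, by 2.36 ± 0.21 on the log2 scale (SE, n = 3 against 3, adjusted p = 0.00114). The call held in all 14 alternatives, with an adjusted p of 5.2e-23 to 0.012. It also fell against the Fam60a knockdown, by 2.07 ± 0.21 (adjusted p = 0.00632), a call lost only in a fit of the 6 libraries compared (adjusted p = 0.0654). Tjp1, which encodes the scaffold ZO-1, was not called in these comparisons with all 9 libraries. Tjp3 overlaps Apba3 on the opposite strand. The library kit marks strand, and the deposited counts carry the label s2, the name of reverse-stranded counting in featureCounts. The processing notes do not spell this setting out. Apba3 held 79.1, 73.7 and 116 CPM after Sin3a knockdown and 91.1, 84.1 and 86.3 CPM in the controls. Cldn19, Cldn3, Dsg2 and Marveld2 also overlap a gene on the opposite strand.

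Cldn5, the claudin best known from endothelium and the blood-brain barrier, lies at chr16:18776847-18778262 on the plus strand (ENSMUSG00000041378). It was at 3.75, 3.76 and 4.02 CPM in the controls, 1.21, 1.54 and 1.26 CPM after Fam60a knockdown and 1.07, 0.557 and 1.62 CPM after Sin3a knockdown. Every knockdown library was below every control library, and the knockdowns overlapped each other. Cldn5 fell by 1.92 ± 0.38 after Sin3a knockdown (SE, adjusted p = 0.0158). The call was lost in 6 of 14 alternatives, without any 1 control (adjusted p 0.0555 to 0.0664), without Sin3a knockdown replicate 1 (0.0594) or 2 (0.0653), and with only the libraries compared (0.0524). After Fam60a knockdown the log2 value was -1.50 ± 0.34 (adjusted p = 0.0546). The replicate number as a block gave 0.0463, where 1 of the 28 and 6.13% of all genes were called. Cldn5 was also called without Sin3a knockdown replicate 3 (-1.49 ± 0.31, adjusted p = 0.0124).

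Cldn19, known from kidney and eye, lies at chr4:119255414-119262438 on the plus strand (ENSMUSG00000066058). It was at 5.86, 5.06 and 2.68 CPM in the controls, 6.34, 6.93 and 1.74 CPM after Fam60a knockdown, and 0.915, 0.743 and 0 CPM after Sin3a knockdown. In reads, the Sin3a knockdown held 6, 4 and 0 against 36, 35 and 18 in the controls, and 3 reads correspond to 1.15 CPM in its replicate 3. All Sin3a knockdown libraries were below all others. Cldn19 fell by 2.74 ± 0.73 (SE, adjusted p = 0.0464), a call lost in 8 of 14 alternatives. These were the fits without control replicate 1 (adjusted p 0.137), 2 (0.131) or 3 (0.0593), without Fam60a knockdown replicate 1 (0.0757) or 2 (0.0674), without Sin3a knockdown replicate 1 (0.0918) or 2 (0.101), and with only the libraries compared (0.0599). Against the Fam60a knockdown the difference was -2.89 ± 0.73 (adjusted p = 0.0735, and 0.0202 with the replicate block, where 4.65% of all genes were called). Without Sin3a knockdown replicate 3 it was -2.58 ± 0.69 (adjusted p = 0.0376).

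Pkp2, a plakophilin of the desmosomal plaque prominent in heart, lies at chr16:16213318-16272712 on the plus strand (ENSMUSG00000041957). It was at 100, 81.4 and 96.8 CPM in the controls, 74.5, 68.8 and 65.1 CPM after Fam60a knockdown, and 67.8, 66.5 and 63.0 CPM after Sin3a knockdown. All knockdown libraries were below the lowest control. Pkp2 fell by 0.50 ± 0.13 after Sin3a knockdown (SE, adjusted p = 0.0426), the smallest of the 4 falls. The call was lost in 10 of 14 alternatives, each leave-one-out fit except that without Sin3a knockdown replicate 3 (adjusted p 0.0593 to 0.198, the latter without control replicate 1), no filter on low counts (0.105) and only the libraries compared (0.123). After Fam60a knockdown the value was -0.42 ± 0.13 (adjusted p = 0.13), and without Sin3a knockdown replicate 3 it was -0.41 ± 0.09 (adjusted p = 0.0192), a call.

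**Figure D2:**
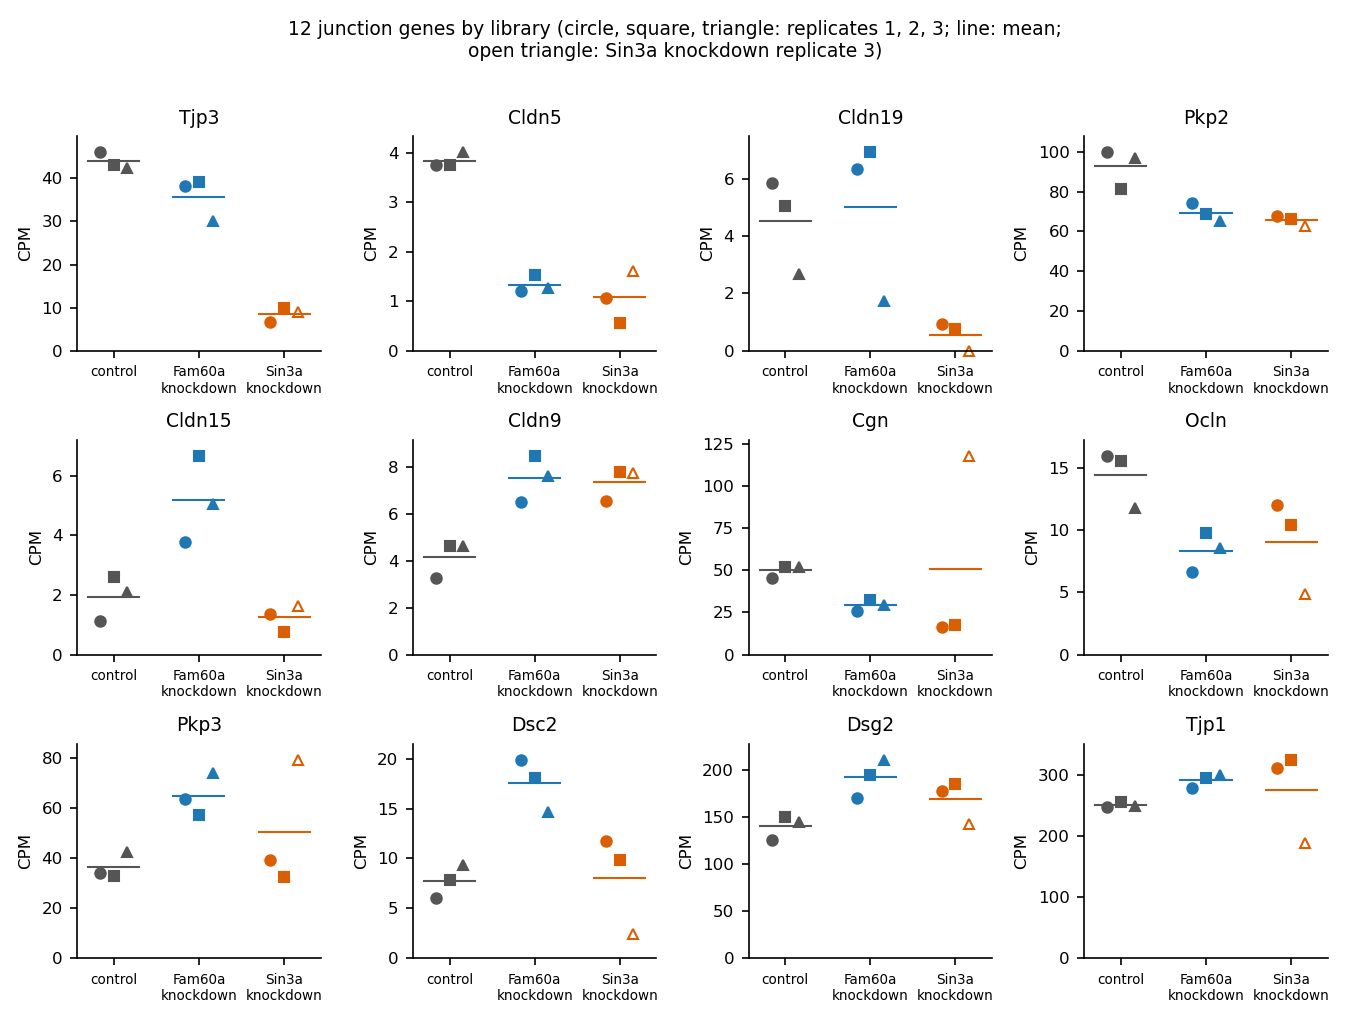
CPM by library for 12 junction genes, with a bar at each group's mean; circles, squares and triangles stand for replicates 1, 2 and 3, and an open triangle marks Sin3a knockdown replicate 3. Tjp3 after Sin3a knockdown is at 6.71 to 10.0 CPM against 42.5 to 46.1 in the controls.

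Cldn15, which forms cation pores in the intestine, differed between the knockdowns. It lies at chr5:136966616-136975858 on the plus strand (ENSMUSG00000001739). It was at 1.14, 2.60 and 2.09 CPM in the controls, 3.78, 6.67 and 5.06 CPM after Fam60a knockdown and 1.37, 0.743 and 1.62 CPM after Sin3a knockdown. The Fam60a knockdown libraries were above all others, while the Sin3a knockdown overlapped the controls. Cldn15 was lower after Sin3a than after Fam60a knockdown by 2.09 ± 0.44 on the log2 scale (SE, adjusted p = 0.0428). Here 2 of the 28 were called, Cldn15 and Tjp3, both lower, against 3.06% of all genes called and 2.18% called lower. The Cldn15 call was lost in 9 of 14 alternatives, each leave-one-out fit except that without Sin3a knockdown replicate 3 (adjusted p 0.0621 without control replicate 1 to 0.151 without Fam60a knockdown replicate 2) and the fit of only the libraries compared (0.123). Against control, the Fam60a knockdown gave 1.40 ± 0.40 (adjusted p = 0.105). It was called without Sin3a knockdown replicate 3 (1.41 ± 0.38, adjusted p = 0.0349) and with only the libraries compared (adjusted p = 0.049).

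Promoter windows of 250 bases before the annotated start were taken from RefSeq (GRCm38.p6) for 18 of the 28 genes. Those of Tjp3 and Cldn5, the 2 falls with the smallest adjusted p after Sin3a knockdown, are shown 5′ to 3′ on the gene's strand. Capitals mark matches, on either strand, to CACGTG (E-box of Myc and Max), CACCTG or CAGGTG (E-box bound by Snail and Zeb factors), GGGCGG or CCGCCC (GC box of Sp and Klf factors) and AACCNGTT or AACNGGTT (Grainyhead site). An E-box can share only an edge base with a GC box, and a Grainyhead match overlaps none of the others. The windows lie at chr10:81291582-81291831 (minus strand) for Tjp3 and chr16:18776597-18776846 (plus strand) for Cldn5.
Tjp3: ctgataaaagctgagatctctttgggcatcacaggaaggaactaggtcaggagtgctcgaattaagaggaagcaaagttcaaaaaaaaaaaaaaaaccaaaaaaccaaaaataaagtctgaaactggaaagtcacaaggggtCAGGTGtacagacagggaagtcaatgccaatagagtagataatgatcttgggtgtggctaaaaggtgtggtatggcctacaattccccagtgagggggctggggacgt
Cldn5: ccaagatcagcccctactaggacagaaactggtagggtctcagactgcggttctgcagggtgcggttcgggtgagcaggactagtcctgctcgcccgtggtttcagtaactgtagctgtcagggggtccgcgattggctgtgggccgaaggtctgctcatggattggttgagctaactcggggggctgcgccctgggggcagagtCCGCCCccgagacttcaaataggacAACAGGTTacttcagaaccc
The Tjp3 window holds 1 CAGGTG and no GC box, and its GC content is 43.2%, against a median of 60.4% over the 18 windows and 52% over 27025 genes. Cldn5 holds 1 GC box and a Grainyhead match, and of the other called genes Cldn15 holds 1 GC box and Cldn19 holds 2. Pkp2 had no window. The RefSeq starts can differ from the gene positions given above, which are from GENCODE M21. The Cldn15 window, at chr5:136967619-136967868, lies inside the span given for that gene. A GC box was found in 15 of the 18 windows and in 33% of all windows, which have a lower GC content. The Snail and Zeb E-box was in 5 of 18 against 17.1% of all, CACGTG in 1 against 6.04%, and the Grainyhead site in 2 against 1.74%. A match is a run of letters and shows no binding.

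Leaving out Sin3a knockdown replicate 3 changed the number of calls more than any other alternative that was run. Without it, 11 of the 28 genes were called after Sin3a knockdown (39.3%, against 24.5% of all genes), 10 after Fam60a knockdown (35.7%, against 16.9%), and 9 between the knockdowns (32.1%, against 14.7%). By direction, these were 2 higher and 9 lower with Sin3a (11% and 13.5% of all genes), 6 higher and 4 lower with Fam60a (9.16% and 7.77%), and 9 lower between the knockdowns (8.49%). The median of the 28 after Sin3a knockdown moved from 0.05 to -0.33, while that of all genes stayed at -0.01. The calls for Tjp3, Cldn5, Cldn19 and Pkp2 held. Added to them were Cgn, Cldn4, Dsp, Evpl and Jup as lower and Tjp1 and Dsg2 as higher. Between the knockdowns, the calls of Tjp3 and Cldn15 were joined by Cgn (adjusted p = 0.00783), Cldn3 (0.0224), Cldn4 (0.0142), Cldn19 (0.0376), Evpl (0.0358), Jup (0.0208) and Pkp3 (0.0104), all lower after Sin3a knockdown.

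Cgn had the lowest adjusted p of these added calls. It was at 45.6, 52.2 and 52.0 CPM in the controls, 26.0, 32.6 and 29.6 CPM after Fam60a knockdown, and 16.3, 17.5 and 118 CPM after Sin3a knockdown. Replicates 1 and 2 of the Sin3a knockdown were the lowest of all libraries and replicate 3 the highest. With all libraries the log2 fold change after Sin3a knockdown was -0.02 ± 0.66 (SE, adjusted p = 0.988), and without replicate 3 it was -1.56 ± 0.14 (adjusted p = 0.000275). After Fam60a knockdown, Cgn gave -0.76 ± 0.66 (adjusted p = 0.733) and, without that library, -0.75 ± 0.12 (adjusted p = 0.00389). Of its 50-base words, 20.1% also occur in the pseudogene BC021767, which held 1 read in all.

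The plaque genes Dsp, Evpl and Jup were also called without replicate 3 and not with it. Dsp was at 67.3, 78.6 and 93.4 CPM in the controls, 62.5, 77.1 and 85.9 after Fam60a knockdown and 53.1, 52.0 and 172 after Sin3a knockdown. The last value was the highest of all 9 and the 2 before it the lowest. Envoplakin (Evpl), a plakin of the cornified envelope, was at 11.1, 10.1 and 10.6 CPM in the controls, 10.4, 14.2 and 8.85 after Fam60a knockdown, and 6.10, 5.20 and 40.6 after Sin3a knockdown. Here too replicates 1 and 2 were the lowest and replicate 3 the highest. Both genes turned direction after Sin3a knockdown without replicate 3, Dsp from 0.19 to -0.60 (adjusted p = 0.0293) and Evpl from 0.64 to -0.90 (adjusted p = 0.0357). Jup was at 265, 245 and 259 CPM in the controls, 261, 243 and 254 after Fam60a knockdown and 194, 219 and 256 after Sin3a knockdown. Replicate 3 lay among the controls and the other 2 below them, and the log2 fold change went from -0.20 (adjusted p = 0.307) to -0.31 ± 0.07 (adjusted p = 0.0123).

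Among claudins, Cldn4 was at 93.8, 92.7 and 84.5 CPM in the controls, 92.4, 94.1 and 71.5 after Fam60a knockdown and 53.1, 60.2 and 82.5 after Sin3a knockdown. All Sin3a knockdown libraries were below the controls, replicate 3 by little. Its log2 fold change was -0.48 (adjusted p = 0.143) and, without replicate 3, -0.67 ± 0.13 (adjusted p = 0.00632). Cldn3, another barrier-forming claudin, was at 7.17, 8.24 and 8.94 CPM in the controls, 12.7, 11.8 and 12.0 after Fam60a knockdown, and 5.95, 6.87 and 3.25 after Sin3a knockdown. The 3 groups did not overlap, with the Fam60a knockdown highest and the Sin3a knockdown lowest. Between the knockdowns Cldn3 gave -1.14 (adjusted p = 0.0737) and was called without replicate 3 (-0.94 ± 0.22, adjusted p = 0.0224) and by DESeq2 (adjusted p = 0.00373).

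Cldn9, known from the inner ear, was at 3.26, 4.63 and 4.62 CPM in the controls, 6.5, 8.47 and 7.59 after Fam60a knockdown, and 6.56, 7.80 and 7.72 after Sin3a knockdown. Every knockdown library was above every control. It gave 0.81 ± 0.27 after Sin3a knockdown (SE, adjusted p = 0.091, and 0.042 with the replicate block) and 0.85 ± 0.26 after Fam60a knockdown (adjusted p = 0.13, and 0.0419 without Sin3a knockdown replicate 3). Both contrasts share the control libraries.

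The other genes called after Fam60a knockdown without Sin3a knockdown replicate 3 spanned both junctions. That library is in neither group of this comparison, but the model of 3 groups shares 1 estimate of the spread. A fit of only the libraries compared called 8 of the 28 and 1827 of all genes. These included Cgn (adjusted p = 0.00971), Pkp3 (0.0106), Cldn5 (0.0157), Dsc2 (0.0175), Dsg2 (0.0259), Tjp1 (0.0315) and Pkp2 (0.0393). Ocln and Cldn9 were not called there. Desmocollin 2 (Dsc2) was at 6.03, 7.81 and 9.39 CPM in the controls, 19.9, 18.1 and 14.7 after Fam60a knockdown and 11.7, 9.84 and 2.44 after Sin3a knockdown. The Fam60a knockdown stood above all other libraries. The log2 fold change of Dsc2 was 1.18 ± 0.44 (SE, adjusted p = 0.22), and 1.19 ± 0.22 (adjusted p = 0.00778) without Sin3a knockdown replicate 3. Its partner Dsg2 was at 126, 150 and 145 CPM in the controls, 170, 195 and 211 after Fam60a knockdown, and 178, 185 and 143 after Sin3a knockdown. All but the last knockdown library were above the controls. Dsg2 gave 0.45 ± 0.14 (adjusted p = 0.126) after Fam60a knockdown and, without Sin3a knockdown replicate 3, 0.46 ± 0.09 (adjusted p = 0.011). Its values were, after Sin3a knockdown 0.27 (adjusted p = 0.262) and, without replicate 3, 0.37 ± 0.10 (adjusted p = 0.0301).

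Plakophilin 3 (Pkp3) was at 33.9, 32.7 and 42.2 CPM in the controls, 63.4, 57.2 and 74.0 after Fam60a knockdown and 39.2, 32.5 and 79.2 after Sin3a knockdown. The Fam60a knockdown stood above the controls, and the Sin3a knockdown overlapped both. It gave 0.84 ± 0.31 after Fam60a knockdown (SE, adjusted p = 0.209), and 0.85 ± 0.14 (adjusted p = 0.0051) without Sin3a knockdown replicate 3. Tjp1, encoding ZO-1, was at 248, 255 and 249 CPM in the controls, 279, 295 and 300 after Fam60a knockdown and 311, 325 and 189 after Sin3a knockdown. Apart from the last library, every knockdown library was above the controls. The Fam60a knockdown gave 0.22 ± 0.18 (adjusted p = 0.711) and, without that library, 0.23 ± 0.05 (adjusted p = 0.0162), and the Sin3a knockdown gave 0.14 (adjusted p = 0.667) and 0.34 ± 0.06 (adjusted p = 0.00336).

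Occludin (Ocln) was at 16, 15.6 and 11.8 CPM in the controls, 6.65, 9.75 and 8.54 after Fam60a knockdown and 12.0, 10.4 and 4.87 after Sin3a knockdown. The Fam60a knockdown lay below the controls, and the Sin3a knockdown overlapped them narrowly. After Fam60a knockdown it gave -0.79 ± 0.33 (SE, adjusted p = 0.287), and -0.78 ± 0.22 (adjusted p = 0.0382) without Sin3a knockdown replicate 3. Counting genes whose libraries did not overlap with the controls, 9 of the 28 were higher and 6 lower after Fam60a knockdown, against 16.2% and 18.2% of all genes. After Sin3a knockdown 1 was higher and 7 lower, against 14.7% and 18.5%. Between the knockdowns 2 were higher and 5 lower with Sin3a, against 11.6% and 13.9%.

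**Figure D3:**
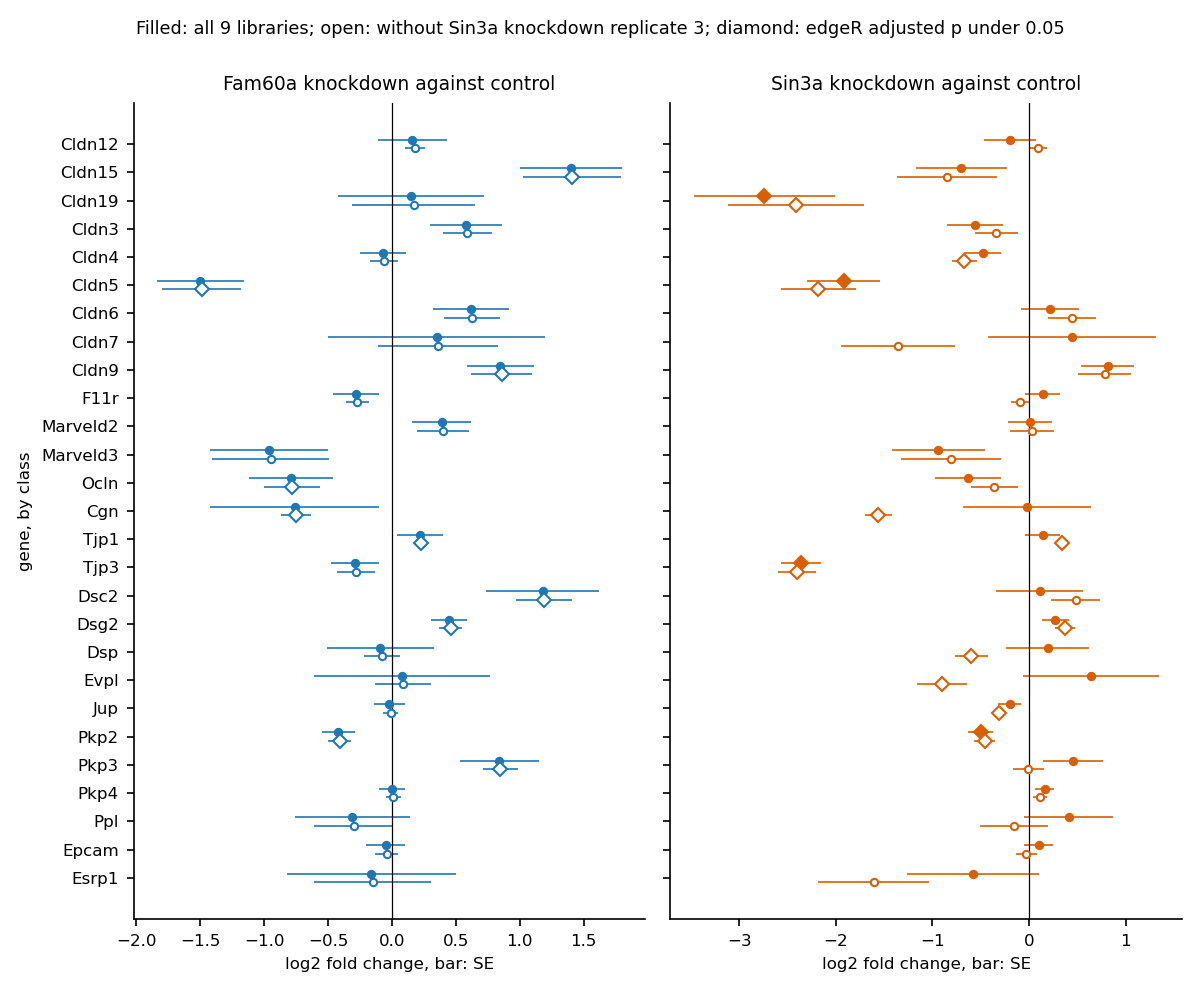
Log2 fold changes with SE for 27 of the genes in each knockdown against control, with all 9 libraries and without Sin3a knockdown replicate 3. Tjp3 is at -2.36 after Sin3a knockdown in the first fit and -2.40 in the second, whereas Cgn moves from -0.02 to -1.56.

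Epcam, Cldn6, Cldn7 and Esrp1 were called in none of the 3 fits described, that of 9 libraries, with the block, or without Sin3a knockdown replicate 3. Epcam, an adhesion molecule of epithelial and embryonic stem cells, was at 84.7, 84.6 and 96.2 CPM in the controls, 80.1, 80.1 and 95.8 after Fam60a knockdown and 84.5, 88.8 and 112 after Sin3a knockdown. All groups overlapped. Cldn6 was at 24.9, 28.6 and 46.0 CPM in the controls, 42.6, 55.7 and 54.7 after Fam60a knockdown, and 41, 49.0 and 25.2 after Sin3a knockdown. The control replicate 3 lay among the knockdown values, so the groups overlapped. Cldn7 was at 5.38, 4.63 and 15.5 CPM in the controls, 8.16, 10.1 and 14.2 after Fam60a knockdown and 2.44, 4.27 and 30.5 after Sin3a knockdown. Replicate 3 was the highest in every group. Esrp1, a splicing regulator of epithelial isoforms, was at 11.4, 14.9 and 26.4 CPM in the controls, 9.37, 10.4 and 27.7 after Fam60a knockdown and 6.10, 5.39 and 25.6 after Sin3a knockdown, again with replicate 3 highest in each group.

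Another 6 genes, Cldn12, F11r, Marveld2, Marveld3, Pkp4 and Ppl, had log2 fold changes between -0.96 (Marveld3) and 0.39 (Marveld2) after Fam60a knockdown, with adjusted p of 0.365 or more. After Sin3a knockdown they ran from -0.94 (Marveld3) to 0.41 (Ppl), with adjusted p of 0.263 or more. None was called in any of the 3 fits.

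**Figure D4:**
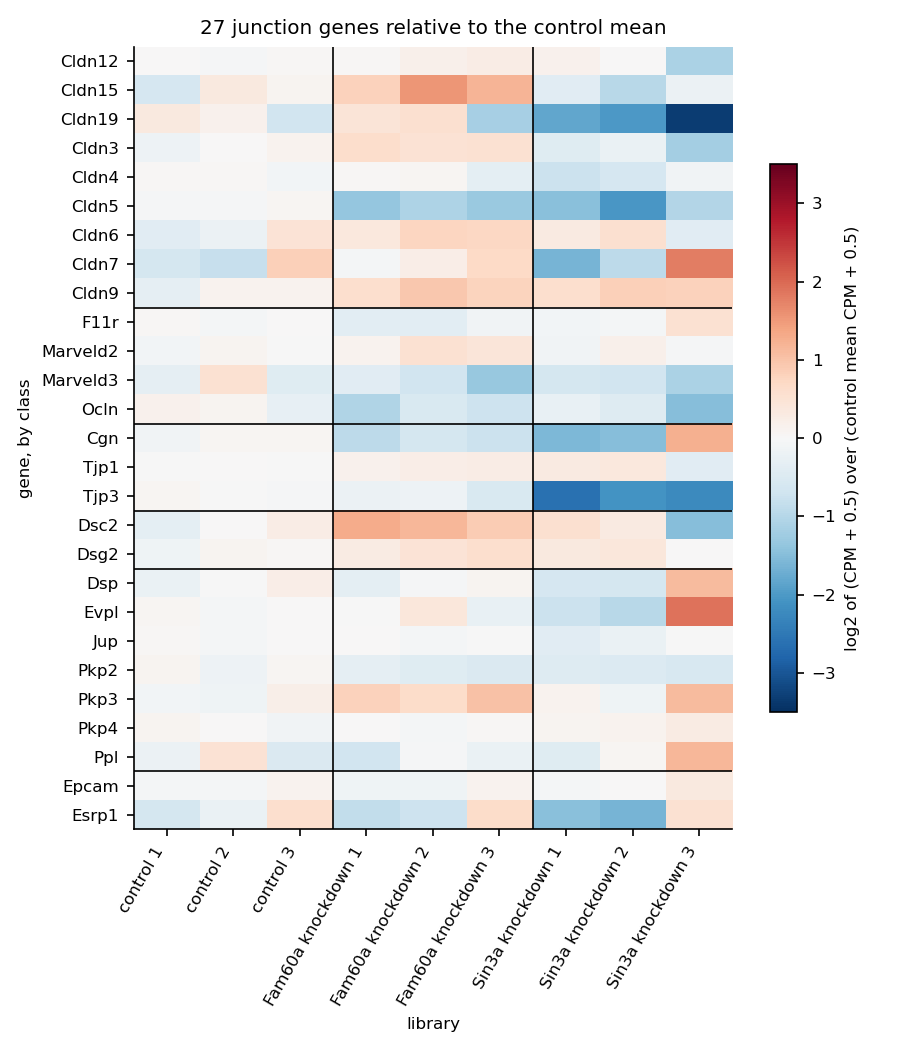
Log2 CPM of 27 of the genes relative to each gene's control mean, in the 9 libraries, grouped by role. The Tjp3, Cldn5 and Cldn19 rows are below control in all Sin3a knockdown libraries, and Sin3a knockdown replicate 3 differs from its 2 partners in Cgn, Evpl, Cldn7 and Dsp.

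Replicate 3 of the Sin3a knockdown differed from the mean of its replicates 1 and 2 by 3.05 (log2) for Cldn7, 2.77 for Cgn, 2.75 for Evpl, 2.07 for Esrp1 and 1.70 for Dsp, and by -1.94 for Dsc2 and -1.12 for Ocln. Across the 28 genes this deviation went with transcript GC content, at r = 0.441, and across 14126 genes at r = 0.55, a description of 1 library. As a ratio of replicate 3 to the mean of 1 and 2, Cldn7 stood at 3.10 in the controls, 1.56 after Fam60a knockdown and 9.08 after Sin3a knockdown, and Esrp1 at 2.01, 2.80 and 4.46. Cgn stood at 1.06, 1.01 and 7, so its excess was seen in the Sin3a knockdown library alone among the 3 replicates 3. The keratin gene Krt8, high in extraembryonic epithelia, was at 21.8, 18.6 and 51.4 CPM in the controls, 48.0, 38.1 and 59.1 after Fam60a knockdown and 37.0, 27.1 and 125 after Sin3a knockdown.

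**Figure D5:**
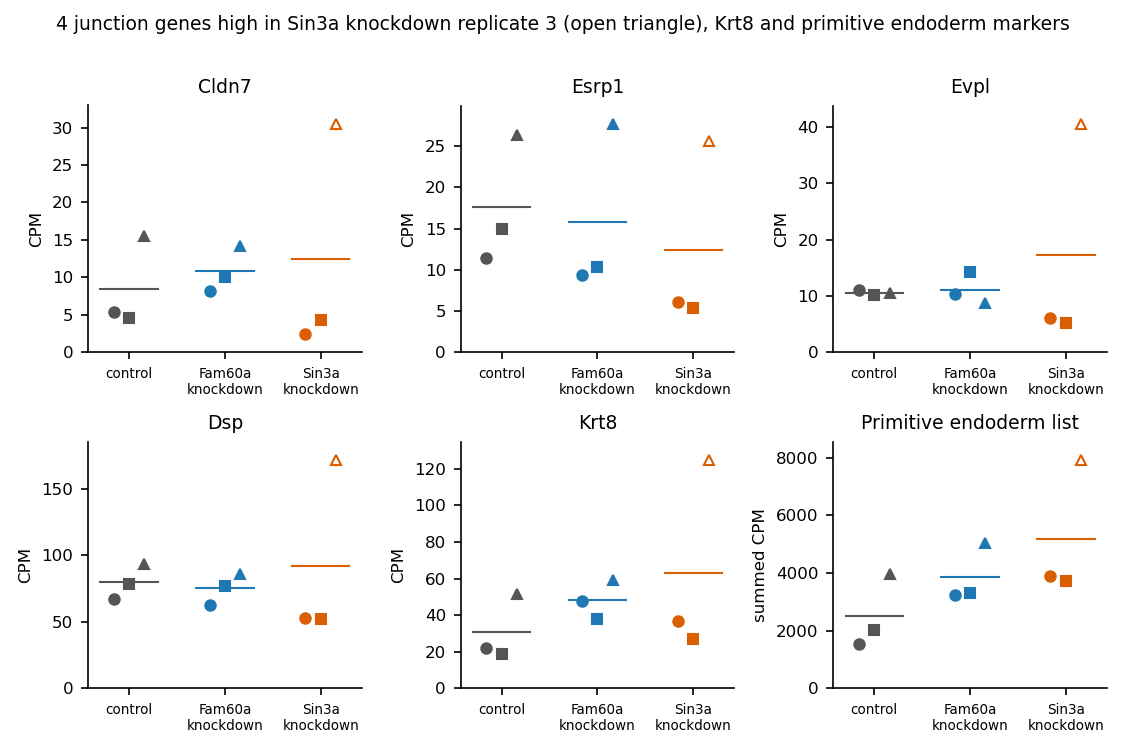
CPM by library of 4 junction genes high in Sin3a knockdown replicate 3, of Krt8 and of the summed primitive endoderm markers, with the same symbols as the plot of 12 genes. Sin3a knockdown replicate 3 is highest for Evpl (40.6 CPM) and for Krt8 (125 CPM), while Esrp1 is high in replicate 3 of every group.

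The 16 primitive endoderm markers, an epithelium that embryonic stem cells can form, summed to 1536 to 3956 CPM in the controls, 3251 to 5025 after Fam60a knockdown and 3727 to 7929 after Sin3a knockdown, and none was at 0 reads. The counts in this and the following lists stand beside shares of all genes called, given for Sin3a and then Fam60a knockdown. These were 10.2% and 2.92% with 9 libraries, 15% and 6.13% with the block, and 24.5% and 16.9% without Sin3a knockdown replicate 3. DESeq2 called 2507 and 1181 of all genes. After Fam60a knockdown 15.7% of all genes had an unadjusted p under 0.05. Of 14 tested, 1 rose after Sin3a knockdown (Gata6) and 0 after Fam60a knockdown by edgeR, where 3 had an unadjusted p under 0.05. In the blocked fit 10 rose after Sin3a knockdown and 4 after Fam60a knockdown (Sox17, Foxa2, Gata6 and Pdgfra), and DESeq2 called 8 and 2. When Sin3a knockdown replicate 3 was left out, Gata6 was the single call after either knockdown.

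The 14 trophectoderm markers summed to 250 to 352, 326 to 419 and 236 to 535 CPM in the 3 groups in the same order. Of 12 tested, Tead4 rose and Cdh3 fell after Fam60a knockdown, and Cdh3 fell after Sin3a knockdown. With the block, 5 rose after Fam60a knockdown (Tead4, Hand1, Cdx2, Eomes and Gata3) and 2 after Sin3a knockdown (Cdx2 and Hand1), with the same falls of Cdh3. Without Sin3a knockdown replicate 3, 4 rose and 1 fell after Fam60a knockdown, and 1 rose and 2 fell after Sin3a knockdown. The 7 surface ectoderm and keratinocyte markers summed to 14.3 to 19.7, 24.4 to 34.8 and 22.3 to 77.6 CPM. The 1 tested, Sfn, was called after Fam60a knockdown without Sin3a knockdown replicate 3, and by DESeq2 after Sin3a knockdown, but in neither with all 9 libraries by edgeR.

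The 11 fibroblast markers, with Dcn and Lum under 10 reads, summed to 61.6 to 123, 79.6 to 116 and 56.8 to 104 CPM. Of 7 tested, Fbn1 rose and Thy1 fell after Sin3a knockdown, and 0 were called after Fam60a knockdown by edgeR (2 at an unadjusted p under 0.05, 1 by DESeq2). With the block, 1 rose after Fam60a knockdown, and 1 rose and 3 fell after Sin3a knockdown. When Sin3a knockdown replicate 3 was left out, 1 rose and 1 fell after Fam60a knockdown, and 1 rose and 3 fell after Sin3a knockdown. The 5 neural progenitor markers found, of which Fabp7 was at 0 reads, summed to 114 to 136, 66.5 to 75.9 and 43.6 to 138 CPM. Of 3 tested, Tubb3 fell after Fam60a knockdown and Tubb3 and Pax6 after Sin3a knockdown, also with the block, and 2 and 3 fell without Sin3a knockdown replicate 3. Of 10 embryonic stem cell markers, Klf2 fell after Sin3a knockdown in each of the 3 fits. After Fam60a knockdown 0 were called by edgeR with 9 libraries or the block (2 at an unadjusted p under 0.05, 1 by DESeq2), and Klf2 and Nanog fell without Sin3a knockdown replicate 3. The part of these cells, of depth or of GC content in the differences of the junction genes was not tested.

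Around the 28, the polarity, adherens and epithelial genes were counted from lists. The shares of all genes called that are given with the primitive endoderm markers apply here too. Of 16 tested genes of the polarity complexes, Crb3, an epithelial Crumbs protein of the apical membrane and tight junctions, fell after Sin3a knockdown by 1.96 ± 0.26 (SE, adjusted p = 0.00394), and Crb2, Pard6g and Pard3 rose. Crb3 was at 10.8, 10.6 and 11.5 CPM in the controls, 8.91, 8.47 and 8.22 after Fam60a knockdown and 2.74, 2.23 and 3.66 after Sin3a knockdown, with no overlap between groups. After Fam60a knockdown 1 of 16 was called, Crb2, with 2.04 ± 0.28 (adjusted p = 0.0108). The block added a fall of Llgl1 after Sin3a knockdown. Without Sin3a knockdown replicate 3, 2 rose and 1 fell after Fam60a knockdown, where 16.9% of all genes were called. In that fit 7 rose and 2 fell after Sin3a knockdown, where 24.5% of all genes were called. Of 19 tested other tight junction components, Esam and Ildr2 rose after Sin3a knockdown. After Fam60a knockdown 0 were called by edgeR with 9 libraries or by DESeq2. At an unadjusted p under 0.05, 3 passed, against 15.7% of all genes. With the block Esam was called higher after Fam60a knockdown (adjusted p = 0.0176). When Sin3a knockdown replicate 3 was left out, Rab13, Cxadr and Ildr1 were higher and Arhgef18 lower after Fam60a knockdown, and after Sin3a knockdown Cxadr was added as higher and Arhgef18 as lower.

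Of 13 adherens junction genes, Nectin2 rose and Lima1 fell after Sin3a knockdown. After Fam60a knockdown 0 were called by edgeR with 9 libraries or the block, or by DESeq2. At an unadjusted p under 0.05, 2 passed, against 15.7% of all genes. Without Sin3a knockdown replicate 3, Nectin2 was higher (adjusted p = 0.0257) and Lima1 (0.00314) and Vcl lower after Fam60a knockdown, and 4 were higher and 1 lower after Sin3a knockdown. E-cadherin (Cdh1) was at 306 ± 16.8 CPM in the controls, 290 ± 22.4 after Fam60a knockdown and 252 ± 29.0 after Sin3a knockdown (SD, n = 3), with log2 fold changes of -0.08 (adjusted p = 0.915) and -0.28 (adjusted p = 0.165). Of 4 tested other desmosome genes, Perp, a membrane protein of desmosomes, rose in both knockdowns, by 1.78 ± 0.28 (adjusted p = 0.0156) with Fam60a and 1.90 ± 0.28 (adjusted p = 0.00553) with Sin3a. Kazn was called lower after Fam60a knockdown without Sin3a knockdown replicate 3. Of 22 tested keratins and epithelial regulators, Cdh3 fell after Fam60a knockdown. After Sin3a knockdown Grhl3 rose and Prss8, Cdh3, Grhl2 and Ehf fell, Grhl2, which regulates epithelial junction genes, by 1.47 ± 0.28 (adjusted p = 0.0135) and the protease gene Prss8 by 2.27 ± 0.33 (adjusted p = 0.00526). The block added Esrp2 and Myo5b as higher after both knockdowns. When Sin3a knockdown replicate 3 was left out, Krt19 was added as higher and Ehf as lower after Fam60a knockdown, and St14 as higher after Sin3a knockdown. Of 12 tested mesenchymal genes, Vim and Twist1 rose and Tgfbi fell after Sin3a knockdown. With Fam60a 0 were called by edgeR and 1 by DESeq2, and 2 had an unadjusted p under 0.05, against 15.7% of all genes. With the block Tgfbi was called lower with Fam60a (adjusted p = 0.0351) and Sparc higher with Sin3a. Without Sin3a knockdown replicate 3, Twist1 was higher (adjusted p = 0.0128) and Tgfbi lower (0.0151) with Fam60a, and Cdh2 was added as higher with Sin3a. Of 7 tested connexins Gjb1 fell in both, by 2.78 ± 0.35 (adjusted p = 0.0106) with Fam60a and 3.21 ± 0.39 (adjusted p = 0.00245) with Sin3a. The block added Gjb5 as higher with Sin3a, and without Sin3a knockdown replicate 3 Gja1 was higher in both. The contrasts with control share the control libraries.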

How the data were processed

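RNA was measured in 9 libraries of mouse embryonic stem cells, 3 per group. The authors deposited whole-number counts of reads per Ensembl gene without normalization. Per the labels' protocols, libraries were TruSeq stranded, read as single ends of 50 bases. Per the submitters' processing notes, the tools were STAR 2.4.0j for alignment, Picard, and featureCounts from Subread. Per the file headers, duplicate reads had been removed. The highest value of a described gene was 0.404 reads per exon base in a library, below the ceiling of 1 per position and strand that duplicate removal sets. This is a mean over the exon length and cannot show how many reads the removal took. The build and annotation behind the counts are not given in the sources used here. For positions, exon lengths and symbols, IDs were matched to GENCODE M21 on GRCm38 (32937 of 37990 genes). The 3 controls were assigned by elimination from the titles.

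The fit used edgeR 4.0.16 with limma 3.58.1 under R 4.3.3: filterByExpr, TMM scaling, robust quasi-likelihood tests in 1 model of 3 groups over 9 libraries, and Benjamini-Hochberg adjustment over 14465 genes with a threshold of 0.05. Every adjusted p comes from edgeR unless DESeq2 1.42.0 is named. Each SE was derived from the coefficient and its F value. CPM values are TMM-scaled. The scripts were tested on simulated data. Alternatives were DESeq2, its size factors in edgeR, no filter on low counts, the replicate number as a block, only the libraries compared, and each library left out.

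Replicate numbers were found to pair libraries: across genes, libraries of 1 number in different groups departed from their group means together, with r between 0.178 and 0.622 for each of 9 pairs. For the 18 pairs of unlike number, r lay between -0.448 and 0.113. Same-number pairs with a Sin3a knockdown library had r of 0.178 to 0.308, and those of control with Fam60a knockdown 0.534 to 0.622. The labels do not say what a number marks, so the block is given beside the calls it changes among the 28 genes and, for the lists, in the comparisons with control.

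Values in every library are given for each gene called in any comparison in the fit of 9 libraries, with the block, or without Sin3a knockdown replicate 3, and for Tjp1, Ocln, Epcam, Cgn, Cldn6, Cldn7, Dsp, Jup and Esrp1. Of each pathway list, up to 3 risen and 3 fallen called genes are named by smallest adjusted p, with Cdh1. Ehf, the genes of these lists called in another fit and the named marker genes were chosen after their values were seen. The values of 3 genes are not reported here, although counts and medians include them. The members and lists were chosen with earlier results of these data known. P-values set a difference between groups against the spread between these libraries. The fit of 9 libraries estimates that spread over all 3 groups together, without the replicate number.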

Additional observations from a re-analysis of the deposited data

How the results depend on the processing

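With only the libraries compared, 8 of the 28 junction genes were called in the Fam60a knockdown against control, 1 in the Sin3a knockdown against control and 0 between the knockdowns, against 0, 4 and 2 with all 9 libraries in 1 model. Over all genes, the fits of only the libraries compared called 1827, 739 and 0, and the model of 9 libraries 423, 1475 and 443. DESeq2 called 3, 4 and 4 of the 28, and 1181, 2507 and 1332 of all genes. With the replicate number as a block, edgeR called 1, 5 and 3 of the 28, and 887, 2164 and 672 of all genes. Leaving out 1 library gave 0 to 10 calls for Fam60a, 1 to 11 for Sin3a and 1 to 9 between the knockdowns, each highest without Sin3a knockdown replicate 3. The calls over all genes in these fits also varied, from 11 to 2495, 521 to 3606 and 48 to 2166, again highest without that library. The Sin3a count was 1 without any 1 control or without Sin3a knockdown replicate 1 or 2, and 2 without Fam60a knockdown replicate 1 or 2. The count between the knockdowns was 1 without any other library than Sin3a or Fam60a knockdown replicate 3. Without Sin3a knockdown replicate 3, direction turned with a call for Dsp and Evpl against control and for Cgn and Evpl against the Fam60a knockdown. Other genes turned without a call, among them Cldn7, from 0.44 to -1.36 against control and from 0.10 to -1.71 against the Fam60a knockdown. Over the fits that leave out 1 library, Dsp ran from -0.60 to 0.54, Evpl from -0.90 to 1.16, Cgn from -0.81 to 1.21, and Evpl between the knockdowns from -0.99 to 1.06; the cause was not tested. Of 1173 values of junction genes recomputed, 1098 changed neither a call nor the direction of a called value, 34 lost a call, 37 gained one and 4 turned. Among the 28 genes the block changed no other call than those of Cldn5, Cldn9 and Cldn19, and the list genes it changed are named with their lists or counted there. Low depth limits Cldn5, Cldn9, Cldn15, Cldn19 and Marveld3, all under 10 CPM in every library. Cldn3, Cldn7, Dsc2 and Marveld2 had control means under 10 CPM. Sin3a knockdown replicate 3 has the fewest reads, with 8 for Cldn3 and 6 for Dsc2.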
